A study of Mus musculus with 12 samples.

Results

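The glandular kallikreins of the mouse are secreted serine proteases of the Klk1 subfamily. The 10 genes described here are Klk1, Klk1b1, Klk1b3, Klk1b4, Klk1b5, Klk1b9, Klk1b22, Klk1b24, Klk1b26 and Klk1b27, chosen by name from the 56065 genes of the count table. All 10 were among the 17893 genes that passed the filter on low counts. They were measured by bulk RNA sequencing of the submandibular gland (SMG) of 8-week-old mice in 4 groups of 3 mice each: female and male wild type (C57BL/6J) and female and male C57BL/6J-Pou2f3 knockout (Pou2f3-/-). The knockout lacks the transcription factor Pou2f3 in every cell of the body and therefore lacks tuft cells, the rare chemosensory cells of the ducts. A difference between genotypes is thus a difference between glands of mice without Pou2f3 in any organ, and a difference between sexes includes everything that differs between female and male mice. No group received a treatment.

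In rodents, the submandibular gland makes kallikreins mainly in the granular convoluted tubule, a duct segment whose growth depends on androgens and which is larger in males. Klk1 is the tissue kallikrein, which releases kinin from kininogen. The Klk1b genes are a rodent expansion of Klk1 whose products process or bind growth factors: Klk1b9, Klk1b22 and Klk1b26 give epidermal growth factor-binding proteins, and Klk1b26 is also known as the prorenin-converting enzyme. Klk1b3 gives an active protease, whereas the product of Klk1b4 has lost protease activity. The products of Klk1b1, Klk1b5, Klk1b24 and Klk1b27 are kallikreins of the same fold whose substrates are less well defined.

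The 10 genes lie on the plus strand of chromosome 7 within the Klk1 subfamily cluster, which runs from base 43592086 to base 43879048 of GRCm39, with 24 annotated genes and pseudogenes. Klk1 closes the cluster (chr7:43874725-43879048), directly after Klk1b5 (chr7:43865369-43870127), Klk1b4 (chr7:43856706-43861178), Klk1b3 (chr7:43847615-43851776) and Klk1b24 (chr7:43837660-43841879). The other members lie nearer the start, with Klk1b1 at chr7:43616175-43620742, Klk1b9 at chr7:43625485-43629800, Klk1b26 at chr7:43661592-43666392, Klk1b27 at chr7:43701714-43706136 and Klk1b22 at chr7:43762084-43766346. A short sequence shared by all 10 is printed here because Klk1 had it as well as the 9 genes that were higher in males. In the 300 bases before the start codon, the word TTTAAA on the coding strand occurred in 10 of 10 members, 68 or 69 bases before the ATG, against 15.3% of the 21660 such windows of all genes scanned. The 10 windows are related copies and not independent occurrences: they were 78.8% to 85.7% identical between Klk1 and the Klk1b members and 76.6% to 90.5% among the Klk1b members. The 30-base segments below are from the plus strand of GRCm39, with the word in capitals. The annotation puts this segment in the 5′ UTR of Klk1, Klk1b4, Klk1b5 and Klk1b26.
Klk1, chr7:43874823-43874852: agaatgagggttTTTAAAggctccccagga
Klk1b5, chr7:43865844-43865873: agaatgagggttTTTAAAgtctccctgagg
Klk1b9, chr7:43625440-43625469: agaatgagggttTTTAAAgtctccctgagg
Klk1b22, chr7:43762045-43762074: agaatgagggttTTTAAAgtctccctgagg
Klk1b27, chr7:43701685-43701714: agaatgagcgttTTTAAAgtctcccgagga
Klk1b26, chr7:43662064-43662093: agaatgagggtaTTTAAAatctcctgagga
Klk1b3, chr7:43847590-43847619: agtataagggttTTTAAAgtctccctgagg
Klk1b1, chr7:43616130-43616159: gagaatgagggaTTTAAAgtctccctaagg
Klk1b4, chr7:43856797-43856826: gagaatgagggtTTTAAAgtctccctgagg
Klk1b24, chr7:43837617-43837646: gagaatgagggtTTTAAAgtctcctgagga

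The segments of Klk1b5, Klk1b9 and Klk1b22 were identical. The word TATAAA on the coding strand was in none of the 10 windows, against 9.94% of all windows. These are matches of letters in a short window and say nothing of binding.

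The coding sequences of the 10 genes are close relatives, which limits how precisely reads can be divided among them. Over the 36 pairs of Klk1b members, identity ranged from 82.5% to 93.6%, with a median of 86.3%. Klk1 was closest to Klk1b5, at 95.2%, and least like Klk1b26, at 83.4%. The longest uninterrupted run shared by Klk1 and Klk1b5, coding bases 346 to 490 of both, is longer than a read of 100 bases and occurred in no other coding sequence of the subfamily. Reads came in pairs, and a pair can still be assigned where its other read lies outside shared sequence. The run is shown here because the Klk1 and Klk1b5 values below depend on how shared reads were split.
Klk1 and Klk1b5, shared coding run: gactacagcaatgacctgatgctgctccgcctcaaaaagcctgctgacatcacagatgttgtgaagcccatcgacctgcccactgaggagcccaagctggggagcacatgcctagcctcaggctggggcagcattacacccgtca

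The share of 31-base words in a transcript that occurred in no other annotated transcript was lowest for Klk1b24, at 40.9%, and highest for Klk1b5, at 72.1%. It was 52.9% for Klk1, 58.3% for Klk1b27 and 71.7% for Klk1b26. The transcripts of Klk1b5 and Klk1b26 are the longest of the 10, at 1391 and 1386 bases with 786 coding bases each. Their start codons lie 556 and 552 bases from the transcript start, so their shares include long stretches outside the coding sequence. The share within coding sequences alone was not measured. Of the 120 deposited values of the 10 genes, 1 was a whole number (within 0.001), whereas 50.4% of all values above 0 were. Nearly every kallikrein value thus held an estimated, fractional part. The share of reads that more than 1 transcript could have given was not measured. The values of single members are therefore uncertain to the extent that the estimate misplaced reads among near-identical copies.

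**Figure D1:**
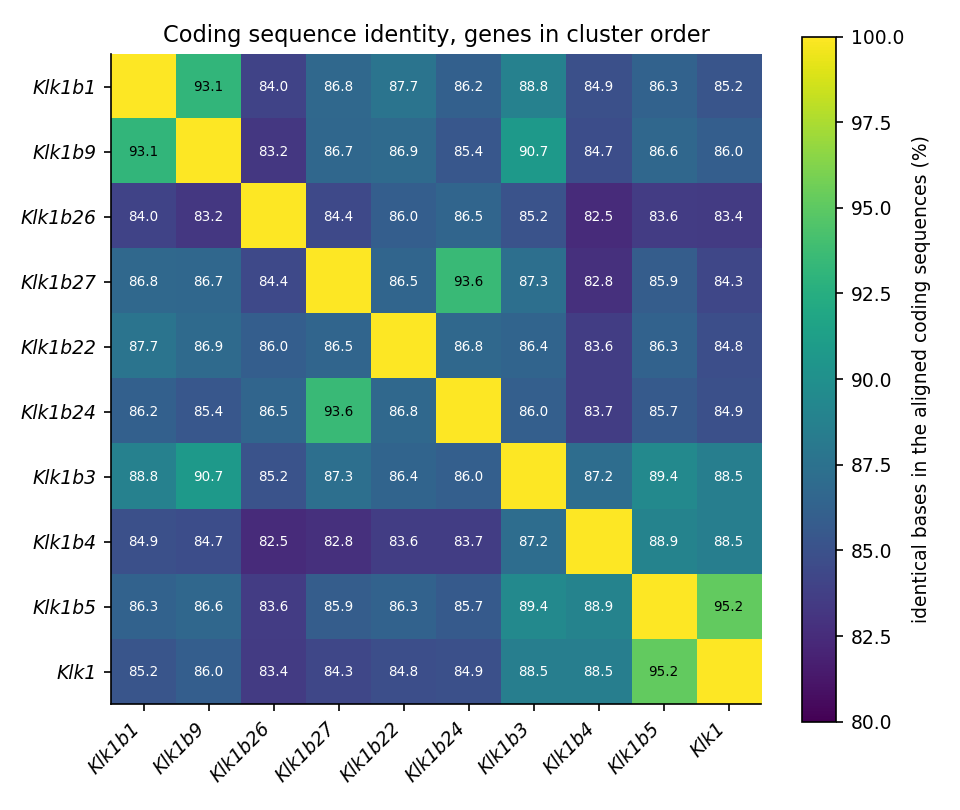
Percent identity of coding sequences between each pair of the 10 glandular kallikreins (both axes, genes in cluster order, colour scale in percent). Klk1 and Klk1b5, at 95.2%, are the closest pair, followed by Klk1b24 and Klk1b27, at 93.6%.

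The libraries held between 47032175 and 67882207 counts, and values are given as CPM, counts scaled to a common library size after adjustment by TMM, a method that assumes most genes do not differ. Every library matched its labelled sex: the summed counts of the Y-linked genes Ddx3y, Uty, Kdm5d and Eif2s3y were 5286 to 7089 in males and 0 to 3 in females, and Xist had at most 3 counts in males. Pou2f3 itself was too low to check the genotype, with 0 to 10 counts in wild-type and 0 to 3 in knockout libraries. A single abundant non-coding RNA, Rn7s1, took 11.8% to 39.1% of a library, and TMM factors ranged from 0.625 to 0.759 in female wild type against 1.04 to 1.45 in wild-type males. Female knockout replicate 3 and male wild-type replicate 3 stood apart in the mucin Muc19, with 228637 and 518166 counts against at most 7767 in each other library. Male knockout replicate 2 stood apart in Amy1 and Bpifa2, which encode salivary proteins, with 56718 and 125303 counts against at most 8714 and 35484. Female wild-type replicate 1 stood apart in the leukocyte genes Itgam and Adgre1, with 1813 and 2233 counts against at most 350 and 681.

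Male glands held far more Klk1b mRNA than female glands in both genotypes, whereas Klk1 was lower in males. Klk1b27 rose 414-fold from female to male wild type, Klk1b24 142-fold and Klk1b3 107-fold, and the smallest rise, of Klk1b5, was 23.7-fold. Klk1 was 2.05-fold lower in male than in female wild type and 2.59-fold lower in male than in female Pou2f3-/- glands. All 10 members passed the test in each genotype (quasi-likelihood test of edgeR, Benjamini-Hochberg adjustment over 17893 genes, adjusted p under 0.05), 9 higher and 1 lower in males. Among all genes tested, 36.5% passed in wild type (20.5% higher and 16% lower in males) and 43.5% in the knockout (23.2% higher and 20.3% lower). The median log2 fold change of the 10 was 6.16 in wild type and 5.97 in the knockout, against 0.06 and -0.02 over all genes tested. The ranges of the 3 female and 3 male CPM values did not overlap for any of the 10 in either genotype, against 47.6% and 54.8% of all genes without overlap. In bulk tissue, more cells of a kind and more RNA in each cell cannot be told apart.

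**Figure D2:**
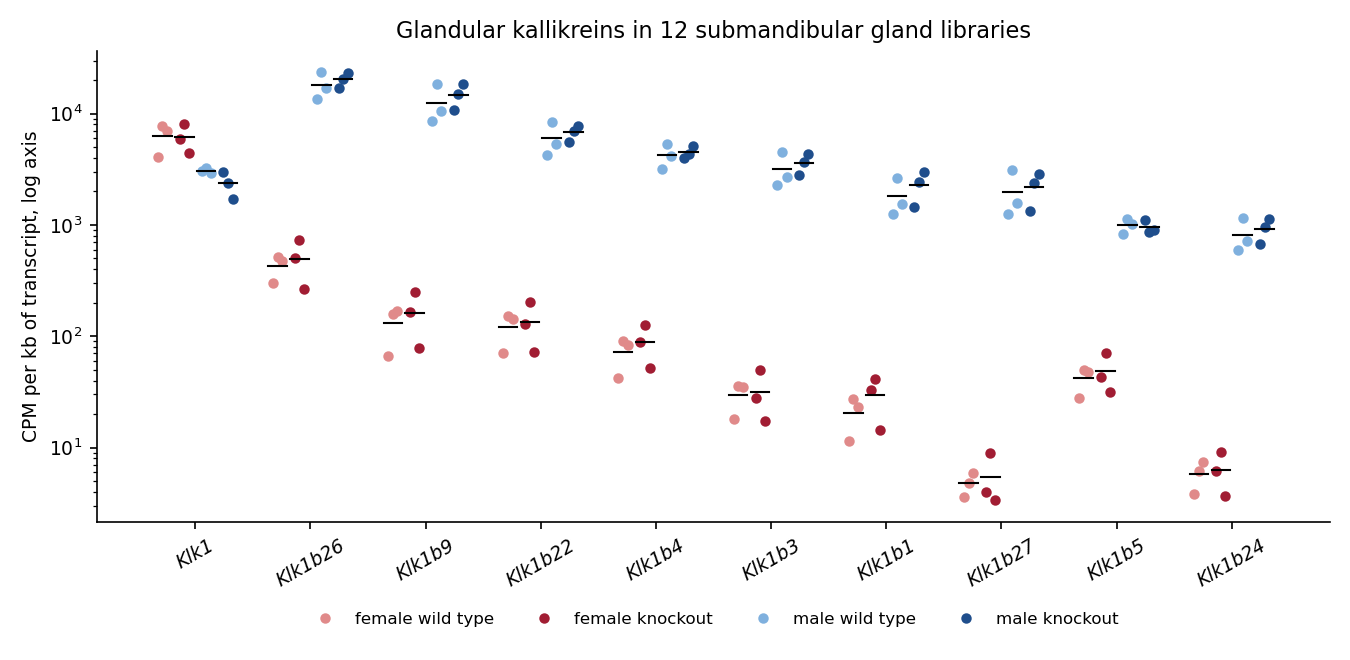
Level of each glandular kallikrein in each of the 12 libraries, as CPM per kilobase of transcript on a log axis, by group. The 9 Klk1b genes lie far higher in males than in females in both genotypes, whereas Klk1 lies between 1714 and 8106 in every group.

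Klk1, the kinin-releasing tissue kallikrein, measured 3882, 7382 and 6700 CPM in the 3 female wild-type glands and 2886, 3083 and 2786 CPM in the 3 male ones. In Pou2f3-/- glands it measured 5612, 7733 and 4211 CPM in females and 2859, 2276 and 1635 CPM in males. Every male value was below every female value of the same genotype. The log2 fold change from female to male was -1.04 (SE 0.28) in wild type, with an adjusted p of 0.011 by edgeR's quasi-likelihood test, and -1.37 (SE 0.28) in the knockout, with an adjusted p of 0.0018. The wild-type difference depended on the scaling. As an unscaled share of the library, Klk1 took between 0.295% and 0.503% in female and between 0.320% and 0.419% in male wild type, and these ranges overlapped. With total counts as library sizes, a setting added after seeing the data, Klk1's log2 fold change in wild type was -0.12 (edgeR adjusted p = 0.69) while the median of all genes moved to 0.95. Relative to that median, Klk1 differed by -1.08, against -1.10 relative to the median under TMM. In the knockout the call was kept under total counts, with a log2 fold change of -1.07 and an edgeR adjusted p of 0.0059.

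Because Klk1 and Klk1b5 share the run shown above, their counts were also added together, a step chosen after seeing the data. The sum was 1.41-fold lower in male than in female wild type and 1.65-fold lower in male than in female knockout. In wild type it ranged from 3921 to 7451 CPM in females and from 4034 to 4656 CPM in males. In the knockout it ranged from 4255 to 7831 CPM in females and from 2889 to 4389 CPM in males. The ranges of the sexes overlapped in both genotypes, unlike those of Klk1 alone. Klk1b5 itself was higher in males, with a mean of 1383 CPM in male and 58.3 CPM in female wild type. Adding it thus raises the male sum whether or not reads were misplaced, so the overlap cannot test the split of reads.

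Klk1b27 had the largest rise of the 10. It measured 3.21, 4.24 and 5.27 CPM in female wild type and 1119, 2746 and 1387 CPM in male wild type. In Pou2f3-/- glands it measured 3.56, 8.01 and 2.98 CPM in females and 1184, 2132 and 2575 CPM in males. Female libraries held 139 to 477 counts of it, so it was above the limit of 3 counts in all 6, and its female level was 0.242% of the male level in wild type. That limit does not cover reads misplaced from other members. Klk1 held 196381 to 460634 counts in female libraries, and its longest coding run shared with Klk1b27 is 82 bases. How many of the female Klk1b27 counts came from misplaced reads was not measured. The log2 fold change of Klk1b27 in wild type was 8.69 (SE 0.57, 95% interval 7.45 to 9.93), with an adjusted p of 2.7e-07 by edgeR's quasi-likelihood test, and ranked 21 of 17893 genes by fold. In the knockout it was 8.66 (SE 0.57), a 404-fold difference with an edgeR adjusted p of 3.3e-07. Klk1b24, whose coding sequence is 93.6% identical to that of Klk1b27, measured 3.38, 5.36 and 6.52 CPM in female wild type and 518, 1011 and 629.6 CPM in male wild type. Its log2 fold change was 7.15 (SE 0.44) in wild type and 7.19 (SE 0.44) in the knockout, and summing the counts of both genes gave 265-fold and 267-fold.

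Klk1b3, which gives an active protease, measured 15.9, 31.7 and 31.2 CPM in female wild type and 2014, 4018 and 2400 CPM in male wild type. Its log2 fold change was 6.74 (SE 0.49) in wild type, with an edgeR adjusted p of 4.8e-07, and 6.83 (SE 0.49) in the knockout. Klk1b4, whose product has lost protease activity, measured 39.1, 83.5 and 77.2 CPM in female and 2943, 4888 and 3800 CPM in male wild type. It was 58.2-fold higher in males in wild type (log2 5.86, SE 0.41, edgeR adjusted p = 3.7e-07) and 50.4-fold higher in the knockout. Neither gene overlapped between the sexes.

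Among the members described here, the genes of the epidermal growth factor-binding proteins were the most abundant Klk1b genes in both sexes. Klk1b11, which is not a member, had more counts than Klk1b9 and Klk1b22 in every female wild-type library. Klk1b16, also not a member, had more counts than Klk1b22 in every male library of both genotypes. Klk1b26 measured 415, 711 and 662 CPM in female wild type and 18628, 32692 and 23795 CPM in male wild type. In Pou2f3-/- glands it measured 694, 1011 and 367 CPM in females and 23622, 28673 and 32013 CPM in males. Its lowest male value stood far above its highest female value, and the fitted rise was 42.0-fold in wild type (log2 5.39, SE 0.40, edgeR adjusted p = 6.3e-07) and 40.7-fold in the knockout. Klk1b9 measured 58.0, 138 and 147 CPM in female and 7398, 15944 and 9115 CPM in male wild type, a 94.4-fold rise (log2 6.56, SE 0.55, edgeR adjusted p = 1.7e-06), and rose 90.8-fold in the knockout. Klk1b22 measured 59.97, 130.1 and 122.7 CPM in female and 3635, 7176 and 4560 CPM in male wild type, a 49.1-fold rise (log2 5.62, SE 0.45, edgeR adjusted p = 1.2e-06), and rose 50.1-fold in the knockout. The rises of these 3 genes had overlapping 95% intervals.

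Klk1b1 and Klk1b5 completed the set. Klk1b1 measured 9.84, 23.6 and 20.2 CPM in female and 1086, 2295 and 1342 CPM in male wild type. It was 88.2-fold higher in males in wild type (log2 6.46, SE 0.53, edgeR adjusted p = 1.4e-06) and 77.9-fold higher in the knockout. Klk1b5 measured 38.98, 69.02 and 66.8 CPM in female and 1148, 1573 and 1427 CPM in male wild type. Its log2 fold change of 4.57 (SE 0.32, 95% interval 3.87 to 5.26, edgeR adjusted p = 4e-07) was the smallest of the 9 Klk1b rises, in the knockout as well (4.29, SE 0.32). Its interval and that of Klk1b27 did not overlap in either genotype. Within each library, the ratio of Klk1b27 to Klk1b5 per transcript length was 0.0924 to 0.129 in the 6 female glands and 1.21 to 3.21 in the 6 male glands. Klk1b27 and Klk1b5 had the largest and smallest of the 9 rises, so these separate ranges restate that choice. The ratio also depends on the length used, since Klk1b5 has 1391 transcript and 786 coding bases and Klk1b27 889 and 792.

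**Figure D3:**
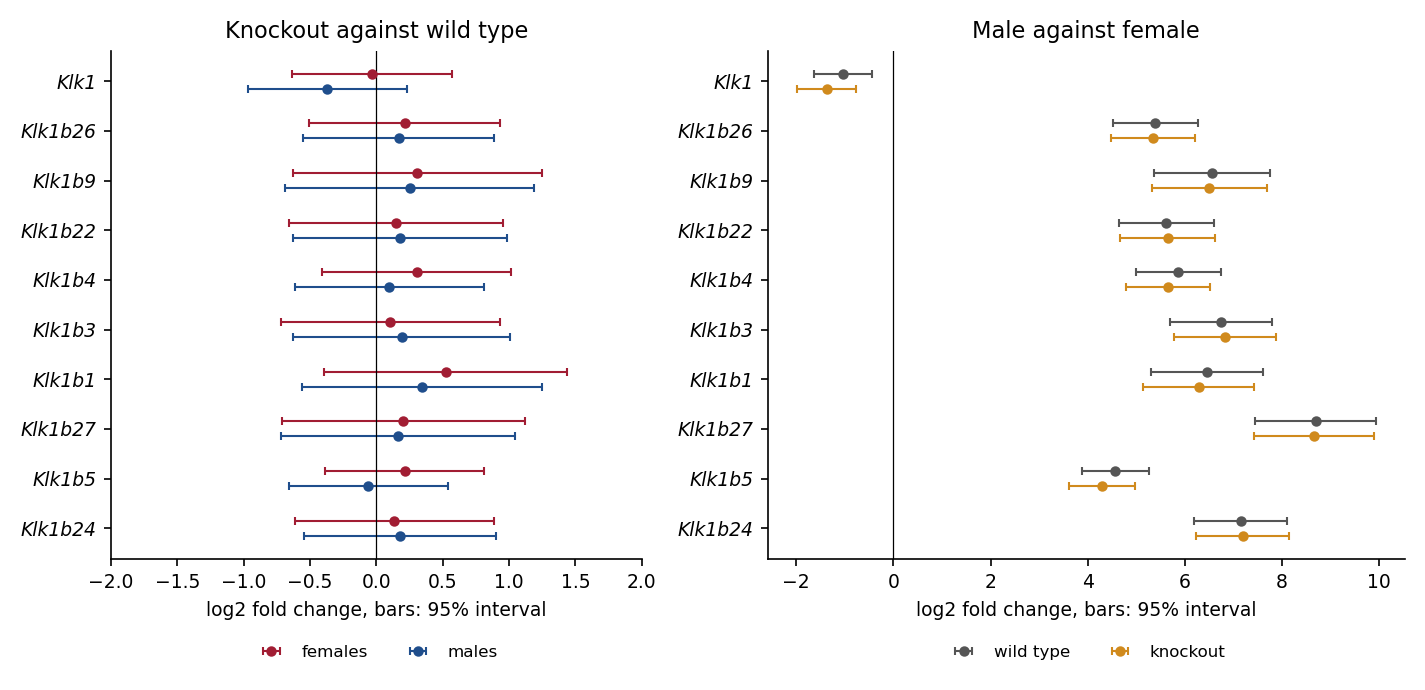
Log2 fold change of each glandular kallikrein with its 95% interval (edgeR) for the sex contrast in each genotype and for the genotype contrast in each sex. The sex contrasts lie from 4.29 to 8.69 for the 9 Klk1b genes and below 0 for Klk1, and every genotype interval spans 0.

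The set of kallikrein transcripts a gland held thus differed in its make-up between the sexes. Per kilobase of transcript, Klk1 made up 87.6% to 88.2% of the summed level of the 10 in female wild type and 84.5% to 89.2% in female knockout. In males its share was 4.53% to 7.83% in wild type and 2.50% to 6.26% in the knockout. Klk1b26 held between 33.04% and 36.1% in male wild type and between 33.7% and 35.6% in male knockout, against 5.35% to 7.60% over the 6 female glands, and Klk1b9 held 22.0% to 27.2% over the 6 male glands. The 9 Klk1b genes together had 0.122 to 0.184 of the level of Klk1 in females and 11.8 to 38.95 times its level in males. The shares of neither Klk1 nor Klk1b26 overlapped between the sexes.

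**Figure D4:**
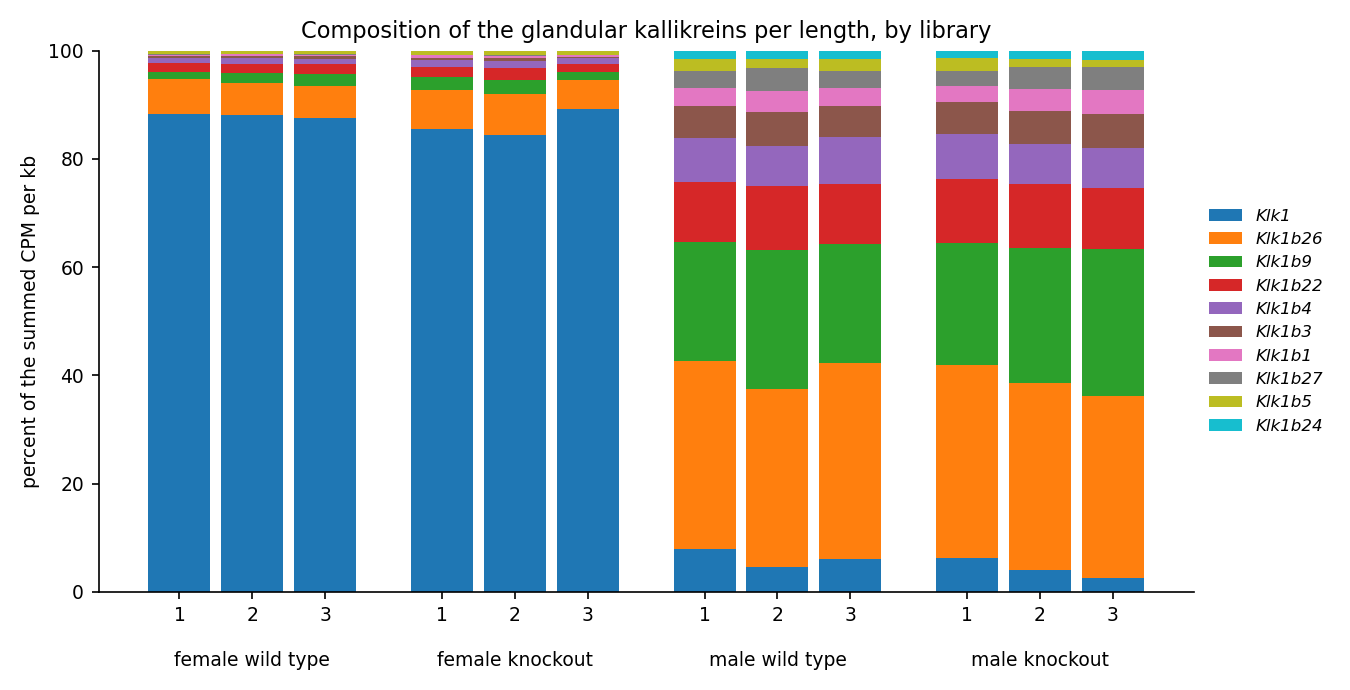
Make-up of the summed level of the 10 glandular kallikreins in each library, in percent of the summed CPM per kilobase. Klk1 fills 84.5% to 89.2% of the female bars and 2.50% to 7.83% of the male bars, where Klk1b26 and Klk1b9 are the largest shares.

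The order of the genes per kilobase was the same in female wild type and female knockout: Klk1, Klk1b26, Klk1b9, Klk1b22, Klk1b4, Klk1b5, Klk1b3, Klk1b1, Klk1b24 and Klk1b27. In female wild type Klk1 had a mean of 6277 ± 1945 CPM per kilobase (SD, n = 3) and Klk1b26 one of 430 ± 115, and these neighbours did not overlap, nor did Klk1b26 and Klk1b9 or Klk1b1 and Klk1b24. The other female neighbours overlapped. In male wild type the order ran from Klk1b26 (18065 ± 5133), Klk1b9 (12436 ± 5196) and Klk1b22 (5993 ± 2148) through Klk1b4, Klk1b3, Klk1, Klk1b27 and Klk1b1 to Klk1b5 (994 ± 155) and Klk1b24 (819 ± 294). Only Klk1b9 with Klk1b22 and Klk1b1 with Klk1b5 were neighbours without overlap there. In male knockout Klk1b1 and Klk1b27 changed places with overlapping ranges. Per kilobase of coding sequence in place of transcript, Klk1b26 stood at 31855 in male and 758 in female wild type and Klk1b5 at 1759 and 74.1, and Klk1 came ahead of Klk1b3 in male wild type, while the female order was the same.

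The 10 genes together took 0.343% to 0.584% of the library in female wild type and 6.01% to 7.82% in male wild type. They took 0.479% to 0.852% in female knockout and 6.43% to 8.02% in male knockout. The 95% Wilson interval of each of these shares was at most 0.0143 percentage points wide, which covers counting error only. On the CPM scale the summed level was 8.02-fold higher in males in wild type and 8.91-fold higher in the knockout, and that of the 9 Klk1b genes alone 53.5-fold and 51.8-fold. The 4 Y-linked genes had 5 counts in all 6 female libraries together and 36369 in the 6 male libraries. The lowest female level of a member relative to its male level in wild type was that of Klk1b27, at 0.242%.

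Along the cluster, the sex difference fell off toward Klk1. In wild type the log2 fold change from female to male was 7.15 for Klk1b24, 6.74 for Klk1b3, 5.86 for Klk1b4, 4.57 for Klk1b5 and -1.04 for Klk1, which are the last 5 genes in this order. Nearer the start no such order held, with 6.46 for Klk1b1, 6.56 for Klk1b9, 5.39 for Klk1b26 and 8.69 for Klk1b27. The other coding genes of the subfamily moved as the Klk1b members did: Klk1b8, Klk1b11, Klk1b16 and Klk1b21 were 240-fold, 30.9-fold, 126-fold and 81.0-fold higher in male wild type (edgeR adjusted p 1.2e-06, 4.8e-07, 4.3e-07 and 1.7e-07). Of the 14 other annotated genes of the subfamily, most of them pseudogenes, 11 were tested. All 11 were higher in males in wild type and 10 in the knockout (median log2 4.95 and 4.99), against 20.5% and 23.2% of all genes. The pseudogenes summed to at most 35.3 CPM in any library. Between the female genotypes 36.9% of all genes were called, higher and lower together. Of the 11 tested subfamily genes, 3 were called higher in female knockout, all of them pseudogenes, and none in male knockout. They were Klk1b7-ps, Klk1b15-ps and Klk1b19-ps, at log2 1.38, 1.73 and 2.55 (edgeR adjusted p = 0.045, 0.0075 and 0.014). The share of 31-base words found in no other transcript was 4.75%, 84.2% and 67.1% in turn. Klk1b7-ps shared 561 of its 589 words with Gm72760, a gene outside the subfamily, so its value depends on how shared reads were split. The sum of the pseudogenes was 0.591 ± 0.397 CPM in female wild type and 1.84 ± 0.653 in female knockout (SD, n = 3 each). The call of Klk1b7-ps was lost in 11 of 21 alternatives and that of Klk1b19-ps in 1 of 21.

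**Figure D5:**
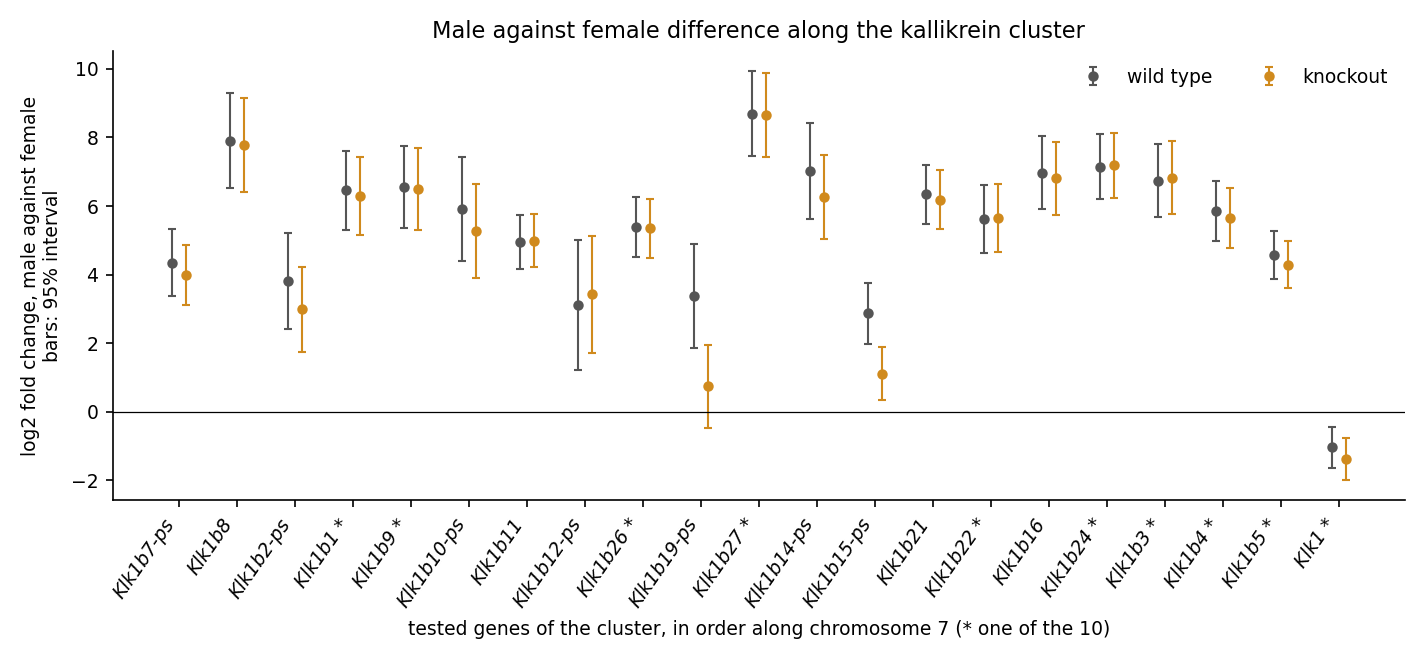
Log2 fold change from female to male of the tested genes of the Klk1 subfamily (vertical axis) in their order along the cluster (horizontal axis), in wild type and knockout, with 95% intervals. Klk1, the last gene, is the only one below 0, at -1.04 in wild type and -1.37 in the knockout.

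No kallikrein passed the test between the genotypes in either sex. In females 0 of the 10 members were called against 36.9% of all genes tested, and in males 0 of the 10 against 0.235% (the same edgeR test and adjustment). At an unadjusted p under 0.05 the count was also 0 in each sex, by edgeR and by DESeq2. The ranges of wild-type and knockout CPM overlapped for every member in both sexes, whereas 49.3% of all genes in females and 14.5% in males had no overlap. In females the log2 fold changes ran from -0.03 for Klk1 to 0.52 for Klk1b1, with a median of 0.21 against 0.03 over all genes, and edgeR adjusted p from 0.36 to 0.94. In males they ran from -0.37 for Klk1 to 0.34 for Klk1b1, with a median of 0.17 against -0.04 over all genes, and edgeR adjusted p from 0.67 to 0.96.

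These data do not show that the genotypes had equal levels. The 95% intervals of the log2 fold changes together spanned -0.72 to 1.44 in females and -0.97 to 1.25 in males, so a rise of Klk1b1 of up to 2.71-fold in females lay within its interval. Klk1 was 5988 ± 1856 CPM in female wild type and 5852 ± 1773 in female knockout (SD, n = 3 each), and 2918 ± 151 CPM in male wild type and 2256 ± 612 in male knockout. Klk1b26 was 596 ± 159 and 691 ± 322 CPM in females and 25038 ± 7114 and 28103 ± 4225 CPM in males, in wild type and knockout in turn. With total counts as library sizes 4 of the 10 (Klk1b1, Klk1b4, Klk1b5 and Klk1b26) were called higher in female knockout, with log2 fold changes of 1.04, 0.82, 0.72 and 0.72, but the median of all genes then stood at 0.53 and 40.3% of all genes were called. Leaving out female wild-type replicate 1 turned the sign of 8 of the 10 members in females, as did leaving out female knockout replicate 2, and no member was called without either. The first of these is the library that stood apart in Itgam and Adgre1. Without it the median over the 10 members was -0.07 in females, and all 10 were still called in the wild-type sex contrast, with a median of 5.84.

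The sex difference of the kallikreins was also compared between the genotypes directly, as an interaction of genotype and sex. By edgeR's quasi-likelihood test 0 of the 10 members were called against 25.7% of all genes, with 0 at an unadjusted p under 0.05 by edgeR and by DESeq2. The interaction, coded as the genotype difference in females minus that in males, ran from -0.08 for Klk1b3 to 0.34 for Klk1 on the log2 scale, with 95% intervals that together spanned -1.27 to 1.47 and edgeR adjusted p from 0.55 to 0.98.

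The spread within a group was shared by the members. In female wild type, replicate 1, the library with the high leukocyte genes, was the lowest of the 3 for all 10 genes, and in female knockout replicate 2 was the highest and replicate 3 the lowest for all 10. In male wild type, replicate 2 was the highest for all 10 by CPM and replicate 1 the lowest for 9. As a share of the library, replicate 2 was the lowest for Klk1 (0.320% against 0.419% and 0.378%) and Klk1b5 (0.163% against 0.167% and 0.194%). By that share Klk1b4 was highest in replicate 3, and every remaining member still in replicate 2. In male knockout Klk1 and Klk1b5 parted from the other 8 members, which were all highest in replicate 3 and lowest in replicate 1. Klk1 was highest in replicate 1, at 2859 CPM, and lowest in replicate 3, at 1635 CPM. Klk1b5, which shares the coding run with Klk1, measured 1530, 1193 and 1255 CPM in replicates 1, 2 and 3. As a coefficient of variation, the spread of Klk1 was 30.99% in female and 5.19% in male wild type, and that of Klk1b27 24.3% and 49.8%.

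Among the substrates and partners of the kallikreins, those of the granular convoluted tubule rose in males with the Klk1b genes. Egf, the epidermal growth factor gene, was 93.4-fold higher in male wild type and 78.8-fold higher in male knockout (edgeR adjusted p = 1.4e-07 and 2.5e-07). Ren1, the renin gene, was 63.1-fold and 30.8-fold higher (edgeR adjusted p = 3.8e-07 and 8.6e-07). Agt, the angiotensinogen gene, was 4.13-fold lower in male wild type and 3.35-fold lower in male knockout (edgeR adjusted p = 9.7e-06 and 3.3e-05). The kininogen genes Kng1 and Kng2 had at most 3 counts in any library, so kininogen mRNA was hardly detectable at this depth.

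In females, Ren1 was higher and Agt lower in the knockout, with Egf not called. Ren1 held 16 to 37 counts a library in wild type and 39 to 118 in the knockout (log2 1.46, SE 0.44, edgeR adjusted p = 0.021), and Agt fell by 0.56 on the log2 scale (SE 0.20, edgeR adjusted p = 0.046). The log2 fold change of Egf was 0.41 (SE 0.31, edgeR adjusted p = 0.33). The call of Ren1 was lost without female wild-type replicate 1 or 3 or female knockout replicate 1 or 2 (edgeR adjusted p up to 0.085), and that of Agt in 11 of 22 alternatives (up to 0.91). In males none of these 3 genes was called, and neither was any by the interaction.

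The genes of kinin action were low or moved less. The kinin receptor genes were nearly absent, with 0 counts of Bdkrb1 in every library and 1 to 11 of Bdkrb2. Of the 5 tested genes for kininases and receptors, 3 were higher in males in wild type and 2 in the knockout, against 20.5% and 23.2% of all genes. None of the 5 was called between the genotypes in either sex, against 36.9% and 0.235% of all genes. Ace, which inactivates bradykinin, was 2.03-fold higher in male wild type and 2.57-fold higher in male knockout (edgeR adjusted p = 0.00018 and 1.8e-05). Mme, neprilysin, was 1.56-fold and 1.90-fold higher (0.014 and 0.0013), and Ece1, an endothelin-converting enzyme, 1.30-fold higher in wild type (0.044). In wild type, the call of Mme was lost without female replicate 1 or male replicate 2 (edgeR adjusted p up to 0.066), and that of Ece1 in 12 of 22 alternatives (up to 0.26).

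Of the inhibitors, Serpina3c, known as kallikrein-binding protein, had 0 to 33 counts a library and was not tested. Serpinb6a, an intracellular serpin, was 10.8-fold higher in male wild type and 11.7-fold higher in male knockout (edgeR adjusted p = 1.8e-08 and 2.1e-08). Of the 3 inhibitors tested it was the only one called in wild type, against 36.5% of all genes. In the knockout, where 43.5% of all genes were called, it was joined by Pebp1, a phosphatidylethanolamine-binding protein, at log2 0.56 (edgeR adjusted p = 0.0016). Pebp1 was lower in female knockout than in female wild type (log2 -0.49, edgeR adjusted p = 0.0049). Serpina3n, a secreted serpin, had group means of 0.329 to 0.665 CPM and was not called in any contrast. Of the 12 other kallikrein-related peptidases, Klk4 to Klk15, only Klk15 passed the filter, with 1 to 3 counts in each female and 7 to 27 in each male library.

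Of the 4 hormone receptor and steroid enzyme genes described here, none was higher in males, against 20.5% of all genes in wild type and 23.2% in the knockout. Nr3c1, the glucocorticoid receptor, was lower in male wild type (log2 -0.57, edgeR adjusted p = 0.0054). Srd5a1, a steroid 5-alpha-reductase, had group means of 3.45 to 5.93 CPM and was not called in any contrast. In females 2 of the 4 differed by genotype, against 36.9% of all genes tested, with Thra, a thyroid hormone receptor, higher in the knockout (log2 0.56, edgeR adjusted p = 0.0017) and Thrb, another thyroid hormone receptor, lower (-0.38, edgeR adjusted p = 0.011). With total counts as library sizes the sex difference of Nr3c1 in wild type turned to 0.32, and the genotype differences of Pebp1 and Thrb in females to 0.02 and 0.12, while the medians of all genes stood at 0.95 and 0.53.

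The genes whose pattern over the 12 libraries was most like the median of the 10 members were named by the root mean square of the differences of log2 CPM, each profile centred on its own mean, among 17869 genes outside the kallikrein family. They were Egf (0.213), Crisp3 (0.507), an unnamed gene with the identifier ENSMUSG00000105960 (0.545), Ren1 (0.587) and Slc15a1, a peptide transporter gene (0.601). By the same measure Klk1b4 stood 0.186 and Klk1b1 0.199 from that median, Klk1b27 1.30 and Klk1 3.67. Crisp3, a secreted cysteine-rich protein, was 35.1-fold higher in male wild type (edgeR adjusted p = 2.2e-06).

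Markers of cell types moved with sex as well. Of all genes tested, 20.5% were higher and 16% lower in males in wild type, and 23.2% were higher and 20.3% lower in the knockout. The 4 markers of the granular convoluted tubule Egf, Ren1, Crisp1 and Crisp3 were higher in males in both genotypes, with a summed level of 745 to 1378 CPM in female and 50427 to 95104 CPM in male wild type, and 829.97 to 2058 and 68146 to 89158 CPM in the knockout. Of the 8 duct markers, 4 were higher in males in wild type and 7 in the knockout, summing to 265 to 342 CPM in female and 536 to 600.2 CPM in male wild type. Of the 6 myoepithelial and basal markers, 4 were higher and 1 lower in males in wild type and 5 were higher in the knockout, with sums of 141 to 188 CPM in female and 364 to 438 CPM in male wild type. Of the 12 acinar markers, 6 were lower in males in wild type, and in the knockout 5 were lower and 1 higher, with sums of 337370 to 554786 CPM in female and 88477 to 131033 CPM in male wild type. Mucl2 made up most of the acinar sum, with 16857580 counts in female wild-type replicate 1 against at most 400960 of any other acinar marker there. The acinar list did not move as one. The other 6 (Bpifa2, Dcpp1, Dcpp2, Dcpp3, Amy1 and Muc19) were high in single libraries, and the median log2 fold change of the 12 was 1.27 in wild type, or -1.39 without male wild-type replicate 3. In the knockout, without male replicate 2, 4 were lower and none higher. With total counts as library sizes 2 of the 12 were lower and 1 higher in each genotype. In females the acinar sum was 194420 to 230084 CPM in the knockout. There 4 of the 12 acinar, 2 of the 8 duct, 3 of the 6 myoepithelial and basal, 2 of the 4 tested leukocyte and 2 of the 4 adipocyte markers were lower and 1 of the 4 tubule markers was higher than in wild type, against 36.9% of all genes called. With total counts as library sizes none of these was lower and 4 duct markers were higher, and without female wild-type replicate 1 no leukocyte marker was called there. Of the 6 leukocyte markers 4 were tested and all 4 were lower in male than in female wild type, but none of the 4 was called without female wild-type replicate 1, whose summed level was 124 CPM against 26.5 and 34.7 CPM in the other two, nor without male wild-type replicate 1, and 2 were without male wild-type replicate 3. The log2 fold change of Itgam moved from -2.42 to -0.36 without female wild-type replicate 1 (edgeR adjusted p = 0.018 and 0.27). Of the 4 adipocyte markers 3 were lower in male than in female wild type, 0 without female replicate 3 and 1 without male replicate 1. All 4 were higher in male than in female knockout, 0 without female replicate 1 or 3 or male replicate 2 and 1 without male replicate 3. Of the 7 tuft cell markers only Dclk1 and Avil were tested. Dclk1 was lower in males in both genotypes and Avil higher in female knockout than in female wild type, and Gnat3 and Il25 had 0 counts in every library. Of the 4 haemoglobin genes 3 were tested, none of them called in wild type and 2 higher in males in the knockout. The part of these differences in cell make-up in the kallikrein values was not tested.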

How the data were processed

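Total RNA of whole glands was rRNA-depleted, made into stranded libraries and sequenced as read pairs, with 1 library per mouse. This follows the study's methods and the library protocol in the labels, whose other fields name polyA RNA and cell pellets. The authors estimated counts per gene with Salmon 1.10.1 against Gencode M35 transcripts, and these deposited expected counts, on GRCm39, are not normalized. The deposited normalized table holds the authors' signal per gene after scaling and served only as an alternative.

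Estimated counts were rounded and tested with edgeR 4.0.16 (quasi-likelihood test, TMM, its filter on low counts, 1 mean for each of the 4 groups, all 12 libraries) in R 4.3.3, with Benjamini-Hochberg adjustment over all genes of a contrast and a threshold of 0.05. DESeq2 1.42.0, the study's tool, was an alternative, beside other normalizations, other filters on low counts, a replicate block, the libraries of a contrast alone, coding length, total counts as library sizes (added later) and each library left out. Replicates are separate mice. CPM used TMM-adjusted library sizes, and levels between genes were divided by transcript length. Sequences and lengths were read from GRCm39 and Gencode M39 with Python 3.11.15, whereas the counts were made on Gencode M35. In M39, 55563 of 56065 identifiers were found. 3 counts equal 0.0399 to 0.0782 CPM. The procedure was tested on simulated data in which a set of genes was changed in female knockout only. The simulation held no sex difference and no reads shared among copies, so it covers neither.

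Named genes were all 10 members, the genes of fixed lists that are substrates, partners, inhibitors, receptors or hormone genes and passed the filter, the list genes with the largest fold change, and the 5 most alike in pattern. Markers were described as lists, and some list genes are not reported here. Members and lists were chosen with earlier results of these data known. Klk1b11, Klk1b16, Klk1b21, Klk1b7-ps, Klk1b19-ps, Klk1b15-ps, Mme, Ece1 and Serpinb6a are named as called list genes, Rn7s1, Muc19 and the Y-linked genes as checks, and Itgam, Adgre1 and the acinar markers high in single libraries after their values were seen.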

Additional observations from a re-analysis of the deposited data

Results flagged for a closer look

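For 3 of the 27 tested genes of the lists other than cell type markers (11.1%), the genotype difference in females differed from that in males by edgeR's quasi-likelihood test of the interaction (Benjamini-Hochberg adjusted), against 25.7% of all genes, and no cause was tested. Of the 43 tested markers 6 were called (the leukocyte gene Adgre1, the adipocyte genes Adipoq, Cidec, Lep and Plin1, and the haemoglobin gene Hbb-bs), all with an interaction below 0. Without 1 library at a time the leukocyte count was 0 to 4 of 4 and the adipocyte count 3 to 4 of 4. The pseudogene Klk1b19-ps had an interaction of 2.64 on the log2 scale (SE 0.90, adjusted p = 0.048, 0.017 to 0.13 over the alternatives), from a difference of 2.55 in females and -0.09 in males, on 0 to 5 counts a library in female wild type. Klk1b15-ps, another pseudogene of the cluster, had an interaction of 1.76 (edgeR adjusted p = 0.035, 0.01 to 0.085 over the alternatives), from 1.73 in females and -0.03 in males. Pebp1 had an interaction of -0.52 (edgeR adjusted p = 0.031, 0.0051 to 0.70 over the alternatives), from -0.49 in females and 0.03 in males. With total counts as library sizes the interaction of Pebp1 was 0.09, while the median interaction of all genes stood at 0.64.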

How the results depend on the processing

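Contrasts were recomputed under 22 alternatives (21 for the interaction, which uses all libraries), 12 of which left out 1 library each. The number of kallikreins called stayed at 10 in each sex contrast and at 0 in each genotype contrast and the interaction, except with total counts as library sizes, which was added after seeing the data and gave 4 in females and 9 in the wild-type sex contrast. Sex differences kept direction and call for all members in 219 of 220 values in wild type and 220 of 220 in the knockout, and the exception was Klk1 in wild type (-0.12, edgeR adjusted p = 0.69 with total counts). Over all alternatives the 9 Klk1b genes were 4.31 to 9.53 higher in males in wild type and 4.12 to 9.29 in the knockout (log2). With total counts Klk1b27 stood at 9.53 in wild type, against 8.69 under TMM. The wild-type median of the members then stood at 7.04, against 6.16.

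Several differences changed sign under some settings, among them the near-zero genotype differences of the members and the called differences of Pebp1, Thrb and Nr3c1, and the cause was not tested. In females Klk1 moved to 0.073 (upper-quartile), 0.0036 (at least 10 counts in every library) and 0.48 (total counts), and with the factors of the deposited normalized table Klk1b3 moved to -0.052, Klk1b24 to -0.054 and Thrb to 0.094. With total counts, which moved the median of all genes to 0.53 in females, -0.16 in males, 0.64 for the interaction, 0.95 in the wild-type and 0.25 in the knockout sex contrast, Pebp1 and Thrb moved in females to 0.020 and 0.12, the interactions of Klk1b3 and Pebp1 to 0.49 and 0.089, and the wild-type sex difference of Nr3c1 to 0.32. Upper-quartile scaling moved the median of all genes to 0.13 in females and -0.18 in the knockout sex contrast.

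Leaving out 1 library at a time gave these ranges in females: Klk1 -0.34 to 0.10, Klk1b3 -0.44 to 0.35, Klk1b4 -0.095 to 0.53, Klk1b5 -0.21 to 0.39, Klk1b9 -0.18 to 0.59, Klk1b22 -0.33 to 0.40, Klk1b24 -0.27 to 0.35, Klk1b26 -0.22 to 0.46 and Klk1b27 -0.42 to 0.40. In males they were Klk1b3 -0.0014 to 0.54, Klk1b4 -0.066 to 0.30, Klk1b5 -0.18 to 0.045, Klk1b22 -0.019 to 0.50, Klk1b24 -0.0090 to 0.51, Klk1b26 -0.0060 to 0.41, Klk1b27 -0.078 to 0.65 and Egf -0.0075 to 0.41. The interaction of Klk1b3 ranged from -0.67 to 0.12. The median interaction of all members moved from 0.05 to -0.45 without female knockout replicate 2, so other members turned sign as well. Without female knockout replicate 3 the median was 0.28.

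Over all genes, 42 were called between male genotypes against 389 with no low-count filter, 392 by DESeq2, 25 with total counts and 13 to 635 without 1 library (635 without male knockout replicate 1), 4604 for the interaction against 2384, 2898 and 2984 without male wild-type replicate 1, male wild-type replicate 3 and male knockout replicate 3, and 6523 in the wild-type sex contrast against 12415 with total counts. Coding in place of transcript length moved the level of Klk1b26 in male wild type from 18065 to 31855 and that of Klk1b5 from 994 to 1759 per kilobase, and put Klk1 ahead of Klk1b3 there. Same-numbered mice shared only a number, with correlations of their deviations between -0.135 and 0.266. The replicate block left the kallikreins called at 0, 0, 0, 10 and 10, and moved the genes called between female genotypes from 6611 to 6349. Depth did not limit the members, each of which had at least 139 counts in every library. How far the number of mice and the split of shared reads limit their precision was not measured.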
